A study of Mus musculus with 6 samples.

Results

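The proteasome is the barrel-shaped protease that degrades proteins tagged with ubiquitin. Its core particle stacks rings of alpha subunits (Psma genes) and beta subunits (Psmb genes), of which Psmb5, Psmb6 and Psmb7 carry the proteolytic sites. The regulatory particle caps the core, and its ATPases (Psmc genes) unfold substrates while its non-ATPase subunits (Psmd genes) recognise and remove ubiquitin. Other caps, the activators encoded by Psme genes, open the core without ubiquitin. In cells exposed to interferon, the catalytic subunits are replaced by Psmb8, Psmb9 and Psmb10, which make the immunoproteasome. The transcription factors NRF1 (Nfe2l1) and NRF2 (Nfe2l2) are known to raise proteasome subunit genes when proteasomes fail or under oxidative stress.

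The constitutive proteasome genes are those named Psma, Psmb, Psmc, Psmd or Psme with a number, without the 3 immunoproteasome genes. Only probe sets with 1 gene symbol were used, and where a gene had several, the brightest on average stood for it. This gave 39 genes of the 18193 measured: 16 of the core particle, 17 of the regulatory particle, 3 activators and 3 chaperones of the regulatory particle's base (Psmd5, Psmd9 and Psmd10), which share the Psmd name but leave the finished particle. Psme2 was not used because its probe set also carries the symbol Psme2b, and Psmc3ip and Psme3ip1 were left out because letters follow the digit.

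The study compared the livers of mice labelled L Pex5 -/- (KO, n = 3) with those of WT mice (n = 3), all male and 10 weeks old, each liver on its own Affymetrix array. The protein made by Pex5 carries newly made enzymes to peroxisomes. Both groups share a mixed background that the labels write as Alb-Cre Tac:[Sw]fBR. The albumin promoter that drives Alb-Cre is active in hepatocytes, so other liver cells of KO mice should keep the gene, and the arrays measured whole liver RNA. Levels are on the log2 scale of RMA, and every difference is KO minus WT with the SE of a limma fit, while an SD is over the 3 livers of a group. Called genes have a Benjamini-Hochberg adjusted p under 0.05 over all 18193 genes.

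The lowest correlation between livers of the same group was 0.989 over all genes, and the highest between a KO and a WT liver was 0.976. The Pex5 probe set read 9.35, 9.19 and 9.13 in KO livers and 9.14, 8.88 and 9.11 in WT livers (difference 0.18 ± 0.11 SE, limma adjusted p = 0.262). Whether it covers the deleted part is not given in the sources used here, so it does not check the labels. Of 5 measured hepatocyte markers 0 were called (limma, and 0 at an unadjusted p under 0.05), with a mean level of 13.98 to 14.06 on KO arrays and 13.89 to 13.98 on WT arrays. The bacterial control transcripts read 9.29 to 9.40 on KO arrays and 9.81 to 9.91 on WT arrays. Centring the arrays on them would add 0.51 to every difference below, so directions are relative to the bulk of genes as deposited.

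Constitutive proteasome transcripts stood slightly higher in KO livers. Of the 39 genes 13 were called, against 24% of all genes. The calls were 12 higher (30.8%), against 14.2% of all genes, and 1 lower, against 9.75% of all genes. The differences were positive for 36 genes and their median was 0.21, which is 1.16-fold, while the median over all genes was -0.05. No call reached 2-fold, and the largest were those of Psmd5 (1.69-fold) and Psmb5 (1.63-fold). All 3 KO arrays lay above all 3 WT arrays for 28 of the 39 genes, against 22.1% of all genes, and below them for 2, against 22.6%. Proteasome transcripts are abundant, and among the 1502 genes with a mean level of 10 or more 21.8% were called higher and 22.2% lower. At that level 9 of 29 proteasome genes were called higher (31.0%) and 0 lower (limma, and 0 at an unadjusted p under 0.05). KO arrays lay wholly above WT arrays for 22 of these 29 genes (75.9%), against 36.8% of the 1502. They lay wholly below for 0 of the 29 and 465 of the 1502. The median difference was 0.21 over the 29 genes and 0.05 over the 1502.

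The count of 12 rests mostly on small differences near the threshold, with 4 genes past a threshold of 0.01. It was 5, 6 and 7 without KO replicates 1, 2 and 3, and 6 without WT replicate 2, while over all genes the share called higher was 8.82%, 8.23%, 10.8% and 11.6% in these fits. The count was 8 with the arrays centred on the median, against 12.5% of all genes. It was 14 with the filter on low values, quantile normalization or array weights, and 17 with trend and robust eBayes. Over all genes the share called higher was 21.8%, 11.7%, 15.4% and 14.8% in these 4 fits. Centring on the bacterial controls made the proteasome count 38, against 71.3% of all genes.

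**Figure D1:**
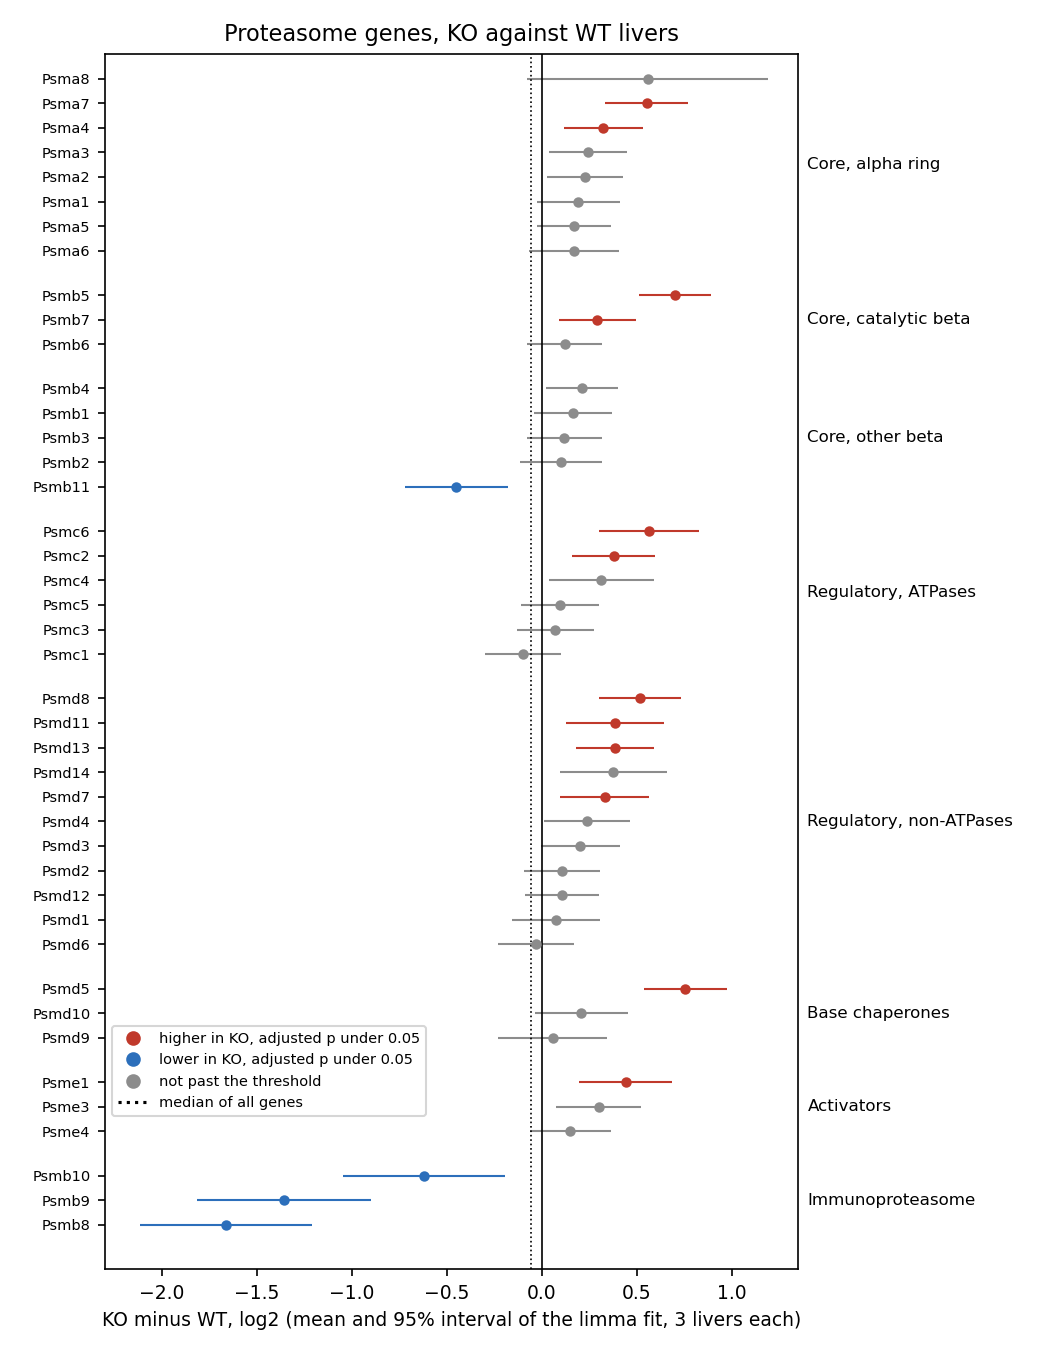
Difference between KO and WT livers for each constitutive proteasome gene and the 3 immunoproteasome genes, by role (x axis, KO minus WT on the log2 scale). Points are means and bars the 95% interval of the limma fit over 3 livers each, with called genes in red (higher) and blue (lower). Constitutive genes lie between -0.45 and 0.76, mostly right of 0, and the immunoproteasome genes between -1.66 and -0.62.

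Among the catalytic subunits of the core, Psmb5 and Psmb7 rose and Psmb6 did not pass the test. Psmb5, which carries the chymotrypsin-like activity, read 11.25, 11.19 and 11.20 in KO livers, against 10.51, 10.53 and 10.50 in WT livers. The groups were far apart relative to their spread, with an SD of 0.03 in KO and 0.01 in WT. The difference was 0.70 ± 0.08 (SE, adjusted p = 0.00089), and it kept its call under all 18 alternatives tried. Psmb5 has only 1 probe set, so the alternatives that choose or average probe sets left its values unchanged and could not test it. Psmb7, which carries the trypsin-like activity, read 12.06, 12.02 and 12.10 in KO livers and 11.69, 11.79 and 11.82 in WT livers. Its arrays did not overlap either, but its call (0.29 ± 0.09, adjusted p = 0.0455) was lost under 10 of the alternatives, where the adjusted p rose to as much as 0.13. Those included the fits without KO replicate 1, 2 or 3 and without WT replicate 1 or 2. Psmb6, which carries the caspase-like activity, read 10.73, 10.71 and 10.64 in KO livers and 10.53, 10.57 and 10.62 in WT livers. Here KO replicate 3 and WT replicate 3 nearly met, and the difference of 0.12 ± 0.08 (adjusted p = 0.328) has an interval from -0.08 to 0.32.

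The start region of Psmb5 is shown because this gene had the largest call in the core and because its window holds the antioxidant response element core, the sequence that NRF1 and NRF2 bind with small MAF proteins. RefSeq's promoter windows (GRCm38.p6, from 250 bases before to 50 after the gene start) were searched on both strands for TGACNNNGC and, apart from it, for CCAAT. Of the 39 genes 32 had a window. Capitals mark the TGACNNNGC match, which in Psmb5 begins at position -47 on the gene's strand and in Psmc6, an ATPase described below, at position -227 on the opposite strand. Both windows are given in the direction of the gene, Psmb5 at chr14:54617946-54618245 on the minus strand and Psmc6 at chr14:45329574-45329873 on the plus strand.
Psmb5: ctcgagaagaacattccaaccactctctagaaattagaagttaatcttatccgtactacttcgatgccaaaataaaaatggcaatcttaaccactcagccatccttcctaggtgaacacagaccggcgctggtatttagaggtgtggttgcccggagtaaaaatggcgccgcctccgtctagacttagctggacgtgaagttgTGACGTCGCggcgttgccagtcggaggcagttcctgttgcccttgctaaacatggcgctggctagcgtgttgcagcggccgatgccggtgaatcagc
Psmc6: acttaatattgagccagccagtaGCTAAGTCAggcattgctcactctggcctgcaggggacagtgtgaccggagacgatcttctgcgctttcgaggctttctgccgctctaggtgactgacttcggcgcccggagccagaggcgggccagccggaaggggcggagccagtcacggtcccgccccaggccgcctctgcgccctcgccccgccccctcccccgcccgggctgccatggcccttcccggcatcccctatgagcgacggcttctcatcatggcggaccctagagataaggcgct
The element core was found in 6 of the 32 proteasome genes (18.8%) and in 13.99% of the 27025 genes with a window. Of the 10 genes called higher that had a window 2 held it, and of the 22 others, Psmb11 among them, 4 did: Psmb6, Psmd9, Psmd12 and Psme4. CCAAT was found in 13 of 32 (40.6%), against 41.1% of all genes, with 2 of the 10 genes called higher and 11 of the 22 others, Psmb11 among these 11. A match describes these letters only.

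In the alpha ring, which gates entry to the core, Psma7 and Psma4 rose. Psma7 read 10.72, 10.69 and 10.74 in KO livers and 10.16, 10.05 and 10.28 in WT livers. The KO livers were close together and every one was above the highest WT liver (0.55 ± 0.09, adjusted p = 0.00482), a call kept under all 18 alternatives. Its other probe set differed by 0.27, with an adjusted p of 0.0785 in the fit over all probe sets. Psma4 read 11.71, 11.64 and 11.60 in KO livers and 11.37, 11.38 and 11.23 in WT livers. It too separated the groups, but its call (0.33 ± 0.09, adjusted p = 0.0363) was lost without any 1 of the 6 arrays, at adjusted p of 0.0543 to 0.128. Psma1, Psma2, Psma3, Psma5 and Psma6 differed by 0.17 to 0.24 without passing, and all but Psma6 had KO arrays wholly above WT arrays. A further bright probe set of Psma6, at 11.36 in KO and 11.32 in WT livers, differed by 0.04 (limma adjusted p = 0.802 in the fit over all probe sets). Psma8, a testis form of an alpha subunit, was dim and scattered, at 5.72, 6.69 and 6.01 in KO livers and 5.81, 5.82 and 5.12 in WT livers.

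The structural beta subunits had a median difference of 0.12, below those of the alpha ring (0.24) and the catalytic subunits (0.29), with Psmb11 counted among them. Psmb4 differed by 0.21 ± 0.08 (adjusted p = 0.1), at 11.85, 11.78 and 11.83 in KO livers and 11.60, 11.62 and 11.62 in WT livers. Psmb1, Psmb2 and Psmb3 differed by 0.17, 0.10 and 0.12. Psmb2 overlapped between the groups and the other structural subunits did not. The other probe set of Psmb3 went the other way, at a mean of 10.07 in KO and 10.20 in WT livers. It differed by -0.13 with all KO arrays below all WT arrays (limma adjusted p = 0.362 in the fit over all probe sets). The single lower call among the 39 genes was Psmb11, the thymus-specific subunit, at 3.73, 3.64 and 3.67 in KO livers and 3.98, 4.04 and 4.36 in WT livers. All 6 values lay under the background of 4.90, set by olfactory receptor genes that liver should not express, so no fold is given. Its call was lost without KO replicate 1, 2 or 3, at adjusted p of 0.0746 to 0.1. The core as a whole had 4 of 16 genes called higher (25%) and 1 lower (6.25%), against 14.2% and 9.75% of all genes. Among genes with a mean level of 10 or more these shares were 21.8% and 22.2%. Without Psma8 and Psmb11, 4 of 14 core genes were called higher (28.6%) and 0 lower (limma, with 7 higher and 0 lower at an unadjusted p under 0.05).

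**Figure D2:**
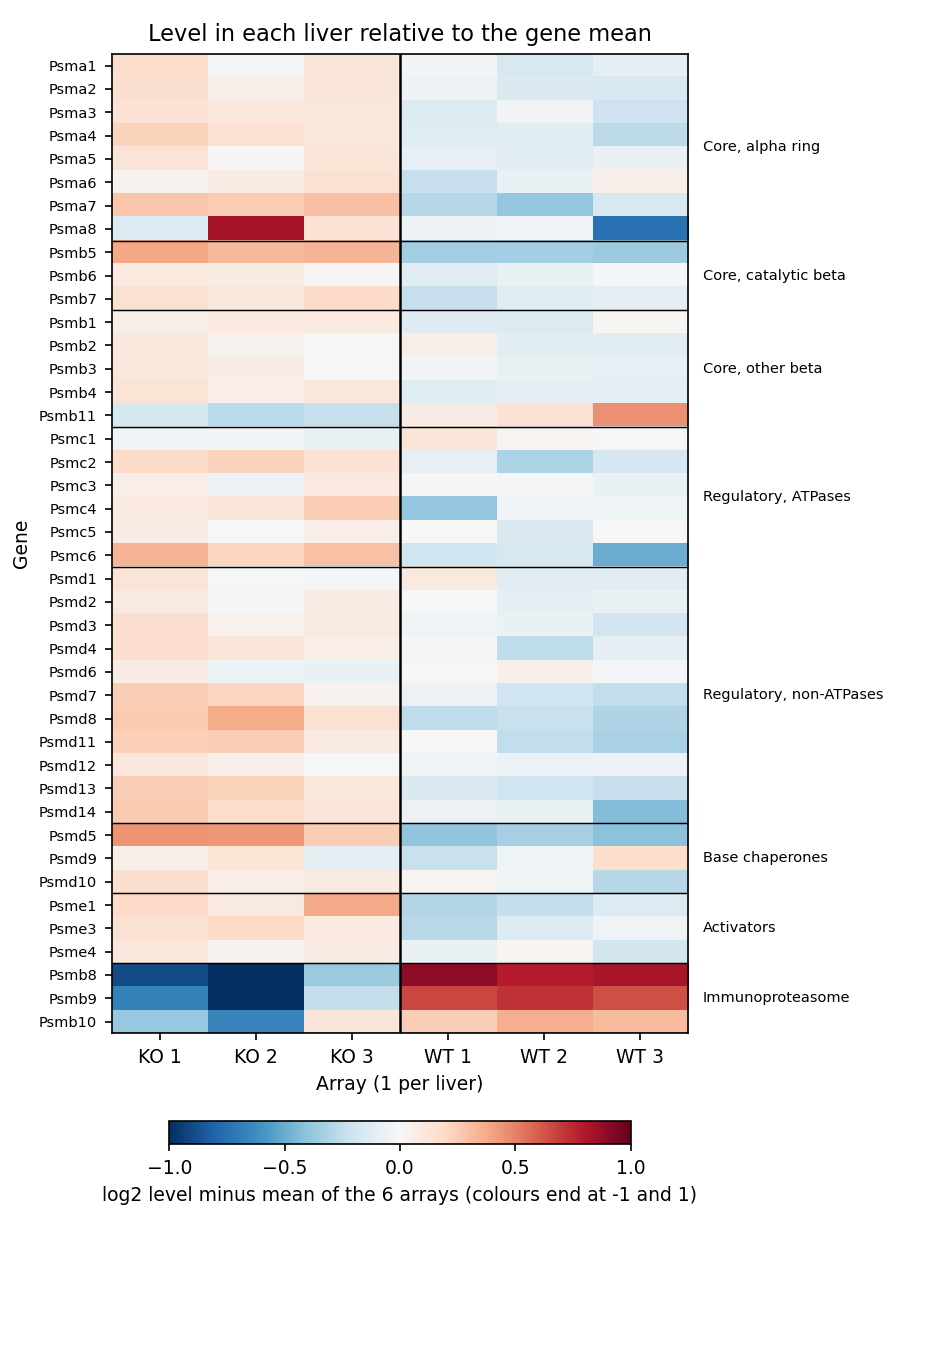
Log2 level of each gene in each liver minus its mean over the 6 arrays, with KO livers left of WT livers and genes grouped by role. Red is above and blue below the gene's mean, and the colours end at -1 and 1. Constitutive rows are mostly pale red in KO and pale blue in WT, and the immunoproteasome rows run the other way except for Psmb10 in KO replicate 3, with KO replicate 2 the lowest.

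The regulatory particle had 6 of 17 genes called higher (35.3%), against 14.2% of all genes and 21.8% of those with a mean level of 10 or more. Of its genes 0 were called lower (limma, and 0 at an unadjusted p under 0.05). In the ring of ATPases Psmc6 and Psmc2 rose. Psmc6 read 10.91, 10.78 and 10.86 in KO livers, against 10.37, 10.41 and 10.07 in WT livers. WT replicate 3 was the lowest, and all KO livers were above all WT livers (0.57 ± 0.11, adjusted p = 0.0101). Its other 2 probe sets differed by 0.17 and 0.14, and averaging its probe sets gave 0.29 (adjusted p = 0.146). Psmc2 read 11.41, 11.45 and 11.36 in KO livers and 11.13, 10.90 and 11.05 in WT livers (0.38 ± 0.10, adjusted p = 0.0241). The groups did not overlap, and the call was lost without KO replicate 1, 2 or 3 or WT replicate 2, at adjusted p of 0.0553 to 0.0905. Of the other ATPases, Psmc4 differed by 0.31, Psmc5 by 0.10 and Psmc3 by 0.07. Psmc1 went the other way by -0.10, at 9.90, 9.92 and 9.86 in KO livers and 10.07, 9.97 and 9.94 in WT livers (adjusted p = 0.427), and is 0.41 after centring on the bacterial controls. The subunits of this ring, which are present in equal number in the particle, thus had differences from -0.10 to 0.57.

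Of the non-ATPase subunits Psmd8, Psmd13, Psmd11 and Psmd7 rose. Psmd8, a lid subunit, read 11.57, 11.68 and 11.46 in KO livers and 11.06, 11.09 and 11.005 in WT livers. The lowest KO liver was well above the highest WT liver. The difference was 0.52 ± 0.09 (adjusted p = 0.00643), and the call held under all 18 alternatives. Psmd8 also has only 1 probe set, so those among them that choose or average probe sets could not test it. Psmd13, also of the lid, read 9.56, 9.54 and 9.42 in KO livers and 9.17, 9.12 and 9.09 in WT livers (0.39 ± 0.09, adjusted p = 0.0169). Its groups were separate, but it missed the threshold when KO replicate 1 (adjusted p = 0.0756) or KO replicate 2 (0.0689) was left out. Averaging its 4 probe sets gave a difference of 0.14 (adjusted p = 0.207). Psmd11, a lid scaffold, read 12.01, 12.02 and 11.86 in KO livers and 11.77, 11.52 and 11.45 in WT livers (0.39 ± 0.11, adjusted p = 0.0399). Its 8 probe sets differed by -0.32 to 0.76, and leaving out KO replicate 1, 2 or 3 or WT replicate 2 or 3 ended its call, at adjusted p of 0.06 to 0.133. Psmd7, the partner of the deubiquitinase in the lid, was closest to the threshold, at 9.67, 9.64 and 9.45 in KO livers and 9.36, 9.22 and 9.18 in WT livers (0.33 ± 0.10, adjusted p = 0.0483). It lost its call under 11 of 18 alternatives, among them the fits without KO replicate 1 or 2 or WT replicate 2 or 3 (0.0968 to 0.159) and the average of its probe sets (0.11, adjusted p = 0.306).

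The deubiquitinase itself, Psmd14, read 11.05, 10.97 and 10.92 in KO livers and 10.73, 10.73 and 10.36 in WT livers. It separated the groups and fell just outside the threshold (0.38 ± 0.12, adjusted p = 0.0585). The ubiquitin receptor Psmd4 differed by 0.24 and the lid subunit Psmd3 by 0.20. The largest subunits of the base, Psmd1 and Psmd2, differed by 0.08 and 0.11 and overlapped between the groups. Psmd12 differed by 0.11, and Psmd6 by -0.03, which is 0.48 after centring on the bacterial controls.

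Core and regulatory particle therefore stood side by side with medians of 0.20 over 16 genes and 0.24 over 17 genes. The mean level over the core genes was 10.48, 10.48 and 10.47 on KO arrays and 10.25, 10.24 and 10.24 on WT arrays. Over the regulatory genes it was 10.61, 10.56 and 10.54 on KO arrays and 10.39, 10.33 and 10.28 on WT arrays. Both particles were higher in each KO liver than in any WT liver, and a difference between the particles was not tested. The order of their medians was turned with quantile normalization (0.24 in the core and 0.23 in the regulatory particle), with the most variable probe set (0.25 and 0.23), with the mean of probe sets (0.18 and 0.11) and without KO replicate 2 (0.239 and 0.236).

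**Figure D3:**
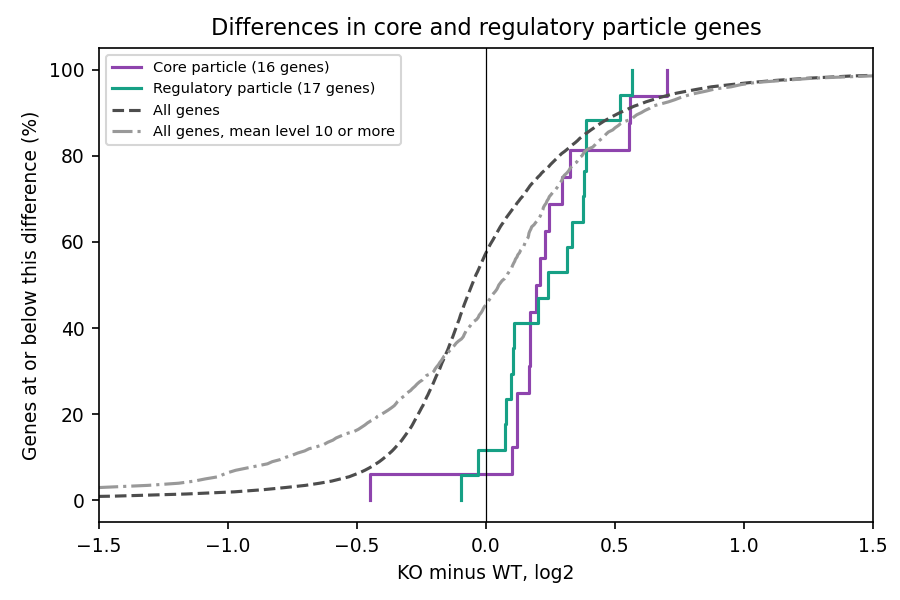
Share of genes (y axis, percent) at or below each KO minus WT difference (x axis, log2) in the core particle, the regulatory particle, all 18193 genes and the 1502 genes with a mean level of 10 or more. Most genes of both particles lie in a narrow band right of 0, with medians of 0.20 and 0.24 and 1 core and 2 regulatory genes left of 0, while the curves of all genes spread widely to both sides.

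The chaperone of the base Psmd5 had the largest difference of the 39 genes. It read 9.79, 9.78 and 9.59 in KO livers and 8.95, 9.01 and 8.93 in WT livers. No KO liver came near the WT livers (0.76 ± 0.09, adjusted p = 0.00122), and the call held under all 18 alternatives. Psmd5 has only 1 probe set, so those among them that choose or average probe sets could not test it. Psmd10, known as gankyrin, differed by 0.21 (adjusted p = 0.187), and Psmd9 by 0.06 (adjusted p = 0.758) in its brightest probe set. Of its other probe sets, one differed by -0.50 without passing in the fit over all probe sets. The other was called higher there, but 2 of its 3 KO values and all 3 WT values were under background, so no difference is given.

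Of the activators, Psme1, the alpha subunit of an interferon-inducible cap, rose. It read 10.98, 10.88 and 11.17 in KO livers and 10.50, 10.55 and 10.65 in WT livers. KO replicate 3 was the highest and the groups did not overlap (0.44 ± 0.11, adjusted p = 0.0204). The call was lost without KO replicate 1 or 3 or WT replicate 1 or 2, at adjusted p of 0.0522 to 0.0662. Psme3, a nuclear activator, differed by 0.30 ± 0.10 just outside the threshold (adjusted p = 0.0574), and Psme4, a large single-chain activator, by 0.15 ± 0.09 (adjusted p = 0.265). In both, KO arrays lay above WT arrays.

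Most genes had more than 1 probe set. The 21 genes with several held 45 further probe sets, of which 28 were positive, 2 were called higher and 0 lower (limma over all probe sets, with 2 lower at an unadjusted p under 0.05). Of the 29 with a mean above background 19 were positive, 1 was called higher and 0 lower. In the same fit 12.5% of the probe sets that stood for the 18193 genes were called higher and 8.23% lower. The further probe sets thus did not exceed that share of higher calls. They are the dimmer ones of their genes, and the share over the further probe sets of all genes was not computed. The comparison therefore cannot decide whether they hold an excess.

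The immunoproteasome genes moved against the constitutive genes: Psmb8, Psmb9 and Psmb10 all fell. Psmb8, the counterpart of Psmb5, read 7.66, 7.32 and 8.18 in KO livers and 9.45, 9.34 and 9.37 in WT livers. It was 3.17-fold lower in KO (-1.66 ± 0.20, adjusted p = 0.00092), with a wider spread among KO livers (SD 0.43) than among WT livers (0.06). Psmb9, the counterpart of Psmb6, read 7.38, 6.93 and 7.81 in KO livers and 8.72, 8.78 and 8.69 in WT livers, 2.56-fold lower (-1.36 ± 0.20, adjusted p = 0.00254). Both calls held under all 18 alternatives, though Psmb9 has only 1 probe set to choose from. Psmb10, the counterpart of Psmb7, read 8.28, 7.99 and 8.78 in KO livers and 8.91, 9.02 and 8.98 in WT livers (-0.62 ± 0.18, adjusted p = 0.0443). Its call was lost without KO replicate 1 or 2, without any 1 of the WT replicates (0.0715 to 0.129) and with centring on the bacterial controls (-0.11, adjusted p = 0.638). In all 3 genes KO replicate 2 was the lowest and KO replicate 3 the highest of the KO livers, and Psme1 had the same order among them.

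A ratio within an array does not depend on how arrays are centred. The log2 ratio of Psmb5 to Psmb8 was 3.59, 3.87 and 3.02 in KO livers and 1.06, 1.19 and 1.13 in WT livers, a shift of 2.37 or 5.16-fold. That of Psmb6 to Psmb9 shifted by 1.48 and that of Psmb7 to Psmb10 by 0.91. All 3 ratios separated the groups completely, as they had to. In Psmb5, Psmb6 and Psmb7 all KO arrays lay above all WT arrays, and in their counterparts all lay below. Each ratio gave an exact two-sided permutation p of 0.1 (0.1 adjusted over the 3 pairs), which is the smallest that 3 against 3 livers can give. That p was fixed by the single genes and adds no support to them. The pairs were set out after the values of both sets were known, and the ratios mix different probe sets, so only their shift between groups can be read.

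**Figure D4:**
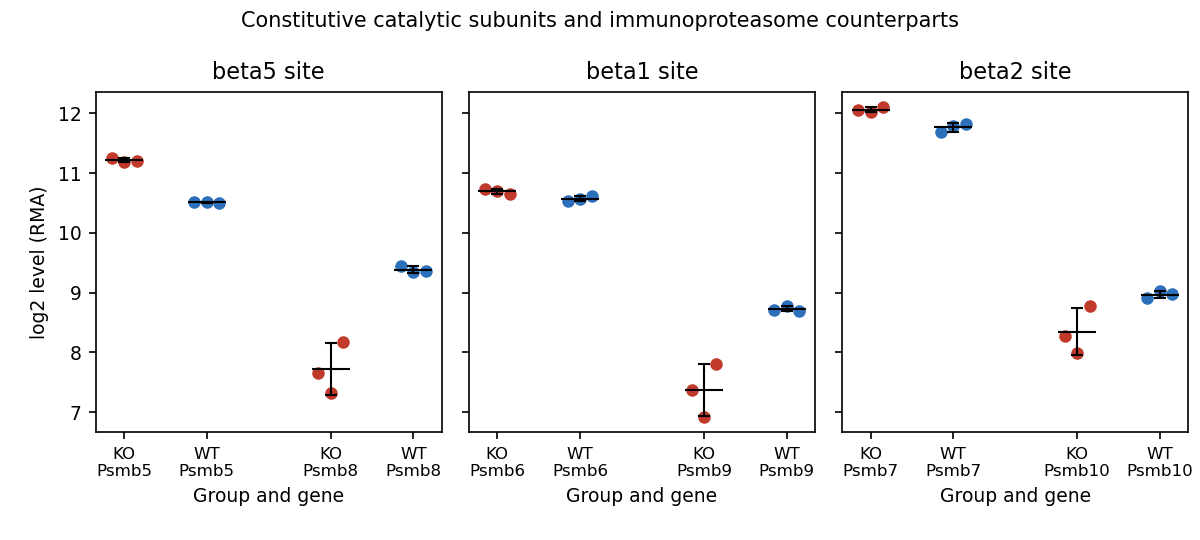
Log2 levels (y axis) of the 3 constitutive catalytic subunits and their immunoproteasome counterparts in each liver, with KO left of WT for each gene. Points are livers, and bars are the mean and SD of 3. Psmb5 is higher in every KO liver and Psmb8 lower, and the KO points of the immunoproteasome genes are spread more widely than the WT points.

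The immunoproteasome is abundant in leukocytes, and in whole tissue fewer cells of a type and less RNA per cell cannot be told apart. Of 8 macrophage markers 0 were called (limma, and 0 at an unadjusted p under 0.05), with a mean level of 8.40 to 8.79 on KO arrays and 7.96 to 9.13 on WT arrays. The same counts held for 8 measured lymphocyte markers, at 5.07 to 5.48 on KO arrays and 5.16 to 5.62 on WT arrays, near the background of 4.90. In both lists the groups overlapped, and their part in the fall of the immunoproteasome genes was not tested. Of 6 endothelial markers 1 was called higher (by 2.06) and 1 lower, against 14.2% and 9.75% of all genes. Of 6 stellate cell markers 1 was called lower, of 4 cholangiocyte markers 1 lower, and of 2 erythroid markers 0 (limma, and 0 at an unadjusted p under 0.05). Differences were positive for 1 endothelial marker and negative for 5, with KO arrays wholly above WT arrays for 1 and wholly below for 3. Stellate markers were positive for 3 and negative for 3, with 0 wholly above and 3 wholly below. All 4 cholangiocyte markers were negative.

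Genes that build or serve the proteasome were read against the 14.2% of all genes called higher and the 9.75% called lower. Of 5 measured chaperones of core assembly 3 were called higher. Psmg1, which pairs with Psmg2 to start the alpha ring, read 10.08, 10.18 and 9.96 in KO livers and 9.60, 9.498 and 9.65 in WT livers (0.49 ± 0.10, adjusted p = 0.0095). Psmg3 differed by 0.54 ± 0.12 and Psmg2 by 0.29 ± 0.08 (adjusted p = 0.0177 and 0.0424). The groups were separate for all 3 genes. Averaging probe sets ended the calls of Psmg3 (0.26, adjusted p = 0.0673) and Psmg2 (0.21, adjusted p = 0.133), and Psmg2 lost its call under 13 of 18 alternatives. Without KO replicate 1 or 2 or WT replicate 2, only 1 of the 3 was called.

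Of 13 measured factors that bind the proteasome or carry substrates to it 4 were called higher. Zfand2a, an arsenite-induced protein of the regulatory particle, read 9.04, 9.21 and 9.15 in KO livers and 7.60, 8.33 and 8.01 in WT livers, 2.22-fold higher (1.15 ± 0.17, adjusted p = 0.00287). Ecpas, which tethers core and regulatory particle, rose 1.51-fold (0.60 ± 0.10). The shuttle receptor Ubqln2 rose 1.43-fold (0.52 ± 0.09), but differed by 0.083 when its probe sets were averaged (adjusted p = 0.478). The proteasome-bound deubiquitinase Usp14 differed by 0.36 ± 0.09 (adjusted p = 0.0215), a call lost without KO replicate 1, 2 or 3. It differed by 0.24 with quantile normalization, by 0.15 with its most variable probe set and by 0.040 when its probe sets were averaged (adjusted p = 0.0625, 0.543 and 0.743).

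Both transcription factors of the pathway rose. Nfe2l1 read 9.12, 9.13 and 8.97 in KO livers and 8.19, 8.24 and 8.10 in WT livers, a 1.86-fold difference (0.89 ± 0.09, adjusted p = 0.000512). Nfe2l2 read 10.10, 10.30 and 10.23 in KO livers and 9.73, 9.64 and 9.40 in WT livers, 1.54-fold higher (0.62 ± 0.11, adjusted p = 0.00698). In both genes the lowest KO liver was above the highest WT liver, and both calls held under all 18 alternatives. Nfe2l1 has only 1 probe set, so those among them that choose or average probe sets could not test it. Syvn1, the ubiquitin ligase that leads NRF1 to degradation at the endoplasmic reticulum, fell, at 8.99, 8.82 and 8.97 in KO livers and 9.21, 9.56 and 9.60 in WT livers (-0.53 ± 0.13, adjusted p = 0.0195). Its difference was -0.016 after centring on the bacterial controls, and its call was also lost without KO replicate 1, 2 or 3 or WT replicate 2. Of the 10 measured genes of this list of regulators 2 were called higher and 1 lower, close to the shares of all genes.

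**Figure D5:**
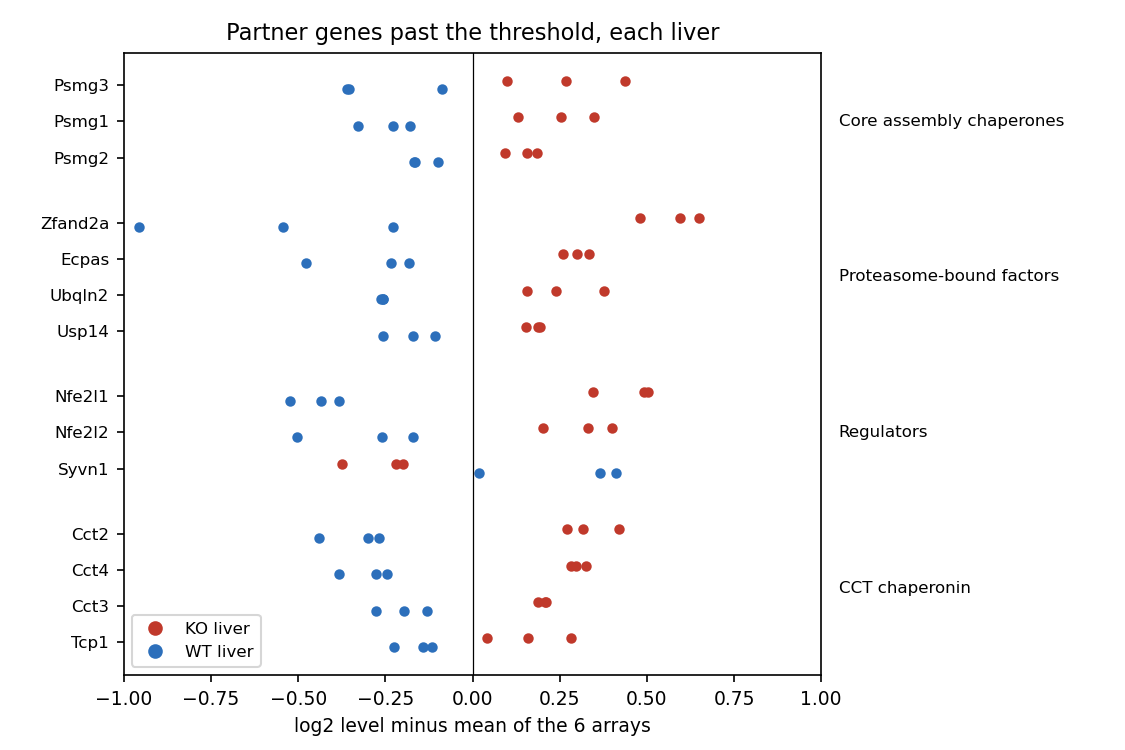
Log2 level of each liver minus the gene's mean over the 6 arrays (x axis) for the named genes of core assembly, proteasome-bound factors, regulators of proteasome genes and the CCT chaperonin. Red points are KO livers and blue points, drawn just under them, WT livers. KO livers lie right of WT livers in every gene shown but Syvn1.

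Of the complex of the unfoldase p97, which hands substrates to the proteasome, 1 of 6 genes was called higher (16.7%), close to the 14.2% of all genes. It was the cofactor Nploc4 (0.39 ± 0.09, adjusted p = 0.0187), a call lost with quantile normalization and without KO replicate 1 or 2. The activating enzyme Uba6, the 1 measured gene of the ubiquitin list, read 7.53, 7.36 and 7.35 in KO livers and 7.22, 7.40 and 7.01 in WT livers (adjusted p = 0.251).

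For comparison, 2 other lists were read in the same fit. In the CCT chaperonin, another large cytosolic complex, 6 of 8 subunits were called higher (75%), against 14.2% of all genes. The median over the 8 subunits was 0.31, and the calls were led by Cct2 (0.67 ± 0.09), Cct4 (0.60 ± 0.09), Cct3 (0.40 ± 0.09) and Tcp1 (0.32 ± 0.10). The count of 6 fell to 2 without KO replicate 1 or KO replicate 2 and to 3 without any 1 of the other arrays. Over all genes the share called higher was 8.82% and 8.23% in the first 2 of these fits and 10.8% to 13.3% in the others. Of 10 measured classic NRF2 targets 6 were called higher (60%), against the same 14.2%. The median over the 10 was 0.73, well above the 0.21 of the proteasome genes. The quinone reductase Nqo1 rose 6.92-fold and sulfiredoxin, Srxn1, 6.44-fold. The epoxide hydrolase Ephx1 rose 2.29-fold, and the cystine carrier Slc7a11 at least 1.49-fold, with all its WT arrays under background.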

How the data were processed

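Liver RNA was isolated with Trizol and labelled by the Affymetrix protocol with biotin, per the labels' protocols. The authors deposited 1 log2 value per probe set and array. RMA is named in the submitters' processing notes, and its version is not given in the sources used here. The log2 scale follows from the range of the values (2.15 to 14.9). RMA normalizes arrays against each other, so levels are relative.

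Groups and replicate numbers come from the titles. Of 45101 probe sets 64 are controls, and the 2016 platform annotation gives 34945 probe sets 1 symbol, 932 several, and does not list 9160. Checking symbols by gene identifier against GRCm38.p6 changed 0. Background is the 95th percentile (4.90) of 38 olfactory receptor genes. Where all WT arrays of a gene lay below it, the fold was computed with those arrays set to it. The test, over all 18193 genes, was limma 3.58.1 (R 4.3.3) with lmFit and eBayes (two-sided, Benjamini-Hochberg, threshold 0.05, no filter), and the fit was tested on simulated data. Precision is limited by having 3 arrays per group.

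Members, lists, motifs, tests and alternatives were chosen with earlier results of these data known. Values in every array are given for the catalytic subunits and for up to 4 called genes of each role with the largest difference, or the largest where none was called. Partner lists name up to 4 called genes, or 1 where none was called. Further genes close to the threshold, dim or in the other direction were given after their values were seen. Alternatives were a replicate block, a filter on low values, other normalizations, other choices of probe set, other eBayes options, array weights, a threshold of 0.01 and leaving out each array. The alternative without cross-matching probe sets was added after seeing the data.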

Additional observations from a re-analysis of the deposited data

How the results depend on the processing

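Centring on the bacterial controls gave 38 proteasome genes higher and 0 lower (limma), 15 higher in the core and 17 in the regulatory particle, medians of 0.71 and 0.75, and 12970 higher and 409 lower genes in all. It turned Psmb11 to 0.064 (adjusted p = 0.625), Psmc1 to 0.41 (0.00519) and Psmd6 to 0.48 (0.00309). A threshold of 0.01 left 4 proteasome genes higher and 0 lower, 2 in the core and 1 in the regulatory particle, and 1285 higher and 732 lower genes in all. Core genes called higher numbered 2 with the replicate block, with the arrays centred on the median and with the most variable probe set, and 7 with trend and robust eBayes. Regulatory genes called higher numbered 3 with the mean of probe sets. The core median was 0.25 with the most variable probe set, and the regulatory median 0.20 with median centring, 0.11 with the mean of probe sets and 0.28 with array weights. The filter on low values removed Psmb11, leaving 0 lower, as the gene was no longer tested. The cause of the other changes was not tested. Leaving out each array gave 5 to 10 proteasome genes higher and 0 to 1 lower, 2 to 3 in the core, 2 to 6 in the regulatory particle, core medians of 0.19 to 0.24, regulatory medians of 0.21 to 0.27, and 1497 to 2424 higher and 888 to 1679 lower genes in all. Psma7, Psmb5, Psmd8 and Psmd5 kept their call under all 18 alternatives. Of these, Psmb5, Psmd8 and Psmd5 have only 1 probe set each, so other choices of probe set left their values unchanged. Same-numbered KO and WT livers deviated together at r of 0.10, -0.02 and 0.11. KO replicates 1 and 3 correlated best with the WT liver of their own number, and KO replicate 2 with WT replicate 1 (0.12). With 3 livers per group, r this small cannot decide whether the numbers pair the livers, and the main fit did not pair them. With the replicate block 9 proteasome genes were higher and 1 lower.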
